A study of Mus musculus with 8 samples.

Results

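The gamma and delta chains of the T cell receptor were followed in mouse CD8 T cells through 5 genes. These are the gamma constant genes Tcrg-C1, Tcrg-C2 and Tcrg-C4, the gamma variable gene Trgv2 and the delta constant gene Trdc. They are 5 of the 32285 genes in the deposited matrices, and of 26 genes there that belong to the gamma and delta loci. They were chosen by symbol, from earlier results of these data in which Tcrg-C1 and Tcrg-C2 differed between the arms of the spleen. Every contrast that uses spleen samples is therefore given as a description, with no test.

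Activated CD8 T cells of 3 donor mice were co-cultured with BMSCs, stromal cells of the bone marrow, whose mitochondria bore the red fluorescent protein dsRed. Sorting split the T cells into a MitoPositive arm, which had taken up dsRed, and a MitoNegative arm, which had not. They were profiled at once (d0, here called culture) or after transfer into B6 mice bearing B16KVP tumors, from whose spleen and tumor they were sorted again at d7. All groups share the co-culture, so none lacks it, and at d7 the arm names give the state at transfer. Each of the 6 groups (culture, spleen and tumor, MitoPositive and MitoNegative in each) held 3 samples, 1 per donor, in 18 hashtagged samples and 4 single-cell libraries. Each arm of a donor went into its own recipient mice, so at d7 recipient and arm cannot be told apart. The strain and age of the donor mice are not given in the sources used here.

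The sums rest on 16313 cells, with 30 to 3409 cells and 315910 to 26511800 gene UMIs (unique molecular identifiers, each counting 1 captured RNA molecule) per sample. The smallest samples were MitoNegative tumor cells (30, 84 and 115 in donors 1, 2 and 3) and MitoPositive spleen cells of donor 3 (48). The 5 genes had 14745 UMIs in all. Levels are given as CPM, the UMIs of a gene over all gene UMIs of the sample, scaled by 1e6. The libraries shared 24 cell barcodes. Summed CD8 T cell markers (Cd8a, Cd8b1, Cd3d, Cd3e, Cd3g and Trac, none at 0) had group means from 3281 to 5661 CPM.

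A T cell receptor is either an alpha beta or a gamma delta pair, and most CD8 T cells carry the alpha beta pair. In mice, each gamma constant gene sits in a cassette with its own joining segment and variable genes. Gamma gene rearrangements are common in alpha beta T cells, where transcription of the gamma locus is held low. The delta genes lie within the alpha locus and are cut out of a chromosome when a V alpha segment joins a J alpha segment. IL-7 receptor signalling through STAT5 opens the gamma locus in developing T cells.

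On GRCm38, Tcrg-C1 lies at chr13:19214103-19217024 on the plus strand and Tcrg-C2 at chr13:19304649-19307551 on the minus strand. Trgv2, the variable gene of the Tcrg-C2 cassette, lies at chr13:19336573-19337167 on the minus strand, and Tcrg-C4 at chr13:19344558-19352756 on the plus strand. Trdc lies at chr14:54142851-54148868 on the plus strand. The first exon of each gamma constant gene (330 coding bases) encodes the immunoglobulin-like domain of the chain. Its first 150 bases are printed 5′ to 3′ because the near identity of these genes bears on how their reads can be told apart. Capitals mark bases that differ from Tcrg-C1, 4 in Tcrg-C2 and 15 in Tcrg-C4.
Tcrg-C1: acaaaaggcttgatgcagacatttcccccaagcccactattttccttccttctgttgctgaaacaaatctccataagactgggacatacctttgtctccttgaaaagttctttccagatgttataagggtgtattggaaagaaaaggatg
Tcrg-C2: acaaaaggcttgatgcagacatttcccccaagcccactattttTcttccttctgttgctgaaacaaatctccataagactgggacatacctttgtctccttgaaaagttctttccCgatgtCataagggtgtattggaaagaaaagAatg
Tcrg-C4: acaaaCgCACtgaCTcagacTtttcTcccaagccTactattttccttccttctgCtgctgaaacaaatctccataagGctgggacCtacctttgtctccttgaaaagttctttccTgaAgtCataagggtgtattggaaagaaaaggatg

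Over the whole of exon 1, Tcrg-C1 and Tcrg-C2 were 97.3% identical, and Tcrg-C4 was 82.1% identical to Tcrg-C1. Exon 2 encodes part of the connecting stretch before the membrane, and it shows the clearest difference between the cassettes. Exon 2 of Tcrg-C2 equals that of Tcrg-C1 without 15 bases, in capitals here, and Tcrg-C4 has 2 exons in its place, the first of which is printed.
Tcrg-C1 exon 2: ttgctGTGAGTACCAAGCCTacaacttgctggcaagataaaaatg
Tcrg-C2 exon 2: ttgctacaacttgctggcaagataaaaatg
Tcrg-C4 exon 2: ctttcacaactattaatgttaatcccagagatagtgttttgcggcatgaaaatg

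The libraries read the 3′ ends of transcripts. Of the 351 windows of 50 bases in the last 400 bases of the Tcrg-C1 transcript, 23.4% also occur in the Tcrg-C2 transcript, and 21.9% of the Tcrg-C2 windows occur in Tcrg-C1. None of the Tcrg-C4 windows occurs in either. The division of UMIs between Tcrg-C1 and Tcrg-C2 is therefore less certain than the level of Tcrg-C4. Trgv2 was not compared with other variable genes, so how surely its reads can be told apart was not tested. Trgv2 is a variable gene and is shown by the end of its second exon, where the capitals begin at the cysteine codon that opens the third hypervariable loop.
Trgv2 exon 2, last 90 bases: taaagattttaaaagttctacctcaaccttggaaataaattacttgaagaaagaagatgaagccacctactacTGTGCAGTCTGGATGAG

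In the spleen, the gamma genes stood higher in MitoPositive than in MitoNegative cells of all 3 donors, and the delta gene did not. In such sums, fewer cells with a transcript and less of it per cell cannot be told apart. Tcrg-C1, the constant gene of the first cassette, had 1.13, 2.66 and 2.46 CPM in MitoNegative spleen cells of donors 1, 2 and 3, and 11.2, 16.1 and 6.33 CPM in MitoPositive spleen cells. The last of these values rests on 2 UMIs. No MitoPositive spleen sample overlapped a MitoNegative one, and the fitted log2 fold change was 2.67. In culture and tumor the gene was close to the detection limit, from 0 to 3.04 CPM, so its level stood out in a single group of the 6. The 30-cell tumor sample had no Tcrg-C1 UMI, which allows up to 6.04 CPM (3 UMIs; this limit and all intervals given here cover counting error only).

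Tcrg-C2, the constant gene that joins with Trgv2, had 2.07, 12.4 and 10.1 CPM in MitoNegative spleen cells of donors 1, 2 and 3. MitoPositive spleen cells had 18.1, 42.7 and 72.8 CPM, the last from 23 UMIs in 9 cells. All lay above the other arm, with a fitted log2 fold change of 2.46. In Trbv14 cells it was 1.60. The donors differed widely within each arm, so the group means were 8.19 ± 5.43 and 44.5 ± 27.4 CPM (SD, n = 3). Trgv2 followed it sample by sample: 0.981, 13.2 and 9.58 CPM in MitoNegative spleen cells and 23.4, 38.4 and 60.1 CPM in MitoPositive spleen cells, with a fitted log2 fold change of 2.71 (1.93 without donor 1 and 3.64 without donor 2). Donor 1 was the lowest of the 3 donors in both arms for both genes.

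Tcrg-C4, the constant gene of the cassette that uses Tcrg-V1, had 7.69, 11.5 and 22.6 CPM in MitoNegative spleen cells and 52.2, 34.7 and 31.7 CPM in MitoPositive spleen cells. Its order of donors was the reverse of that of Tcrg-C2 and Trgv2 in the MitoPositive arm, where donor 1 was highest. The arms did not overlap, and the fitted log2 fold change was 1.87. Without donor 1 it was 1.16.

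Trdc, the delta constant gene, showed no such separation. It had 89.5, 162 and 57.5 CPM in MitoNegative spleen cells and 104, 98.9 and 47.5 CPM in MitoPositive spleen cells, the last from 15 UMIs. It was higher in MitoPositive cells in 1 of 3 donors, and the fitted log2 fold change was -0.27. Without donor 2 it was 0.04. The share of cells with a Trdc UMI was 29.98%, 24.7% and 8.92% in MitoNegative spleen samples and 14.2%, 12.3% and 10.4% in MitoPositive spleen samples, and it stood higher in MitoNegative cells of donors 1 and 2.

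**Figure D1:**
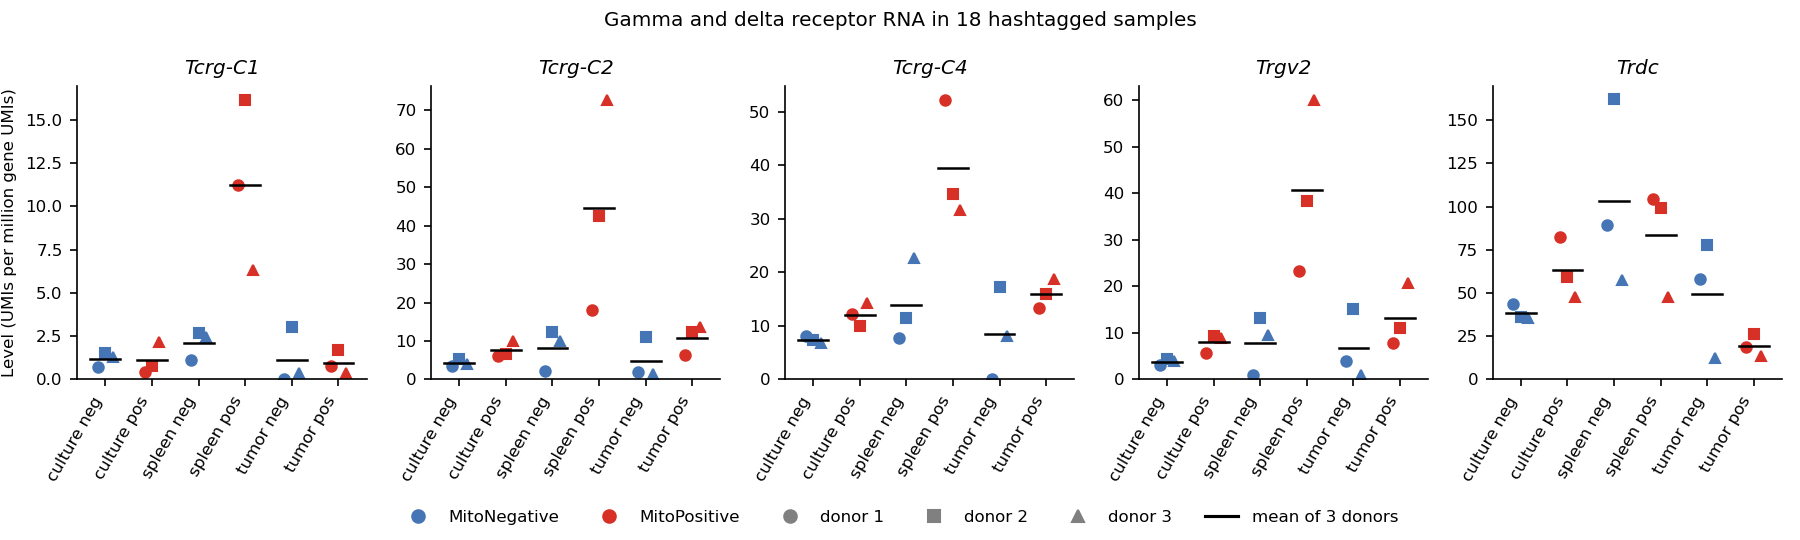
Level (CPM, vertical axis, a separate scale for each gene) of the 5 genes in the 18 samples, grouped by site and arm, with symbols for the 3 donors and bars for the mean of 3 donors. The 4 gamma genes are highest in MitoPositive spleen cells, where Tcrg-C2 reaches 72.8 CPM, whereas Trdc has its lowest mean, 19.5 CPM, in MitoPositive tumor cells.

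Summed over the 3 gamma constant genes, MitoPositive spleen samples had 95.3 ± 14.7 CPM (SD, n = 3) and MitoNegative ones 24.2 ± 12.3 CPM. A gamma constant UMI was found in 26.7% and 26.4% of MitoPositive spleen cells of donors 1 and 2 and in 12 of 48 cells of donor 3. It was found in 4.43%, 9.03% and 13.4% of MitoNegative spleen cells. After thinning each cell to 2000 UMIs, which left out 214 MitoPositive and 311 MitoNegative spleen cells, the shares were 12.8% ± 2.12 and 3.85% ± 1.74 (SD, n = 3). The 91 cells of the clusters left out for few Cd3 UMIs (a neutrophil-led and a B cell-led cluster, median 4625 UMIs) held 1 cell with a gamma constant UMI, 1.10% (exact binomial 95% interval 0.0278% to 5.97%). The share over all MitoPositive spleen cells, 26.5% (25.002% to 28.0%) at a median of 5564 UMIs, lay above this interval. The MitoNegative share, 6.45% (5.80% to 7.16%) at a median of 6799 UMIs, had an interval that overlapped it. Donor 1, with 3409 of these 5176 cells, lay within the interval of the left-out clusters at 4.43%. Donors 2 and 3 lay above that interval, at 9.03% and 13.4%. Both shares pool cells over donors, so their own intervals do not cover the spread between donors.

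Most gamma-positive cells carried few molecules. Of the 917 MitoPositive spleen cells with a gamma constant UMI, 481 had 1 UMI, 209 had 2 and 227 had 3 or more, with 13 in the highest cell. Trdc UMIs were more often found several to a cell: of 447 MitoPositive spleen cells with a Trdc UMI, 278 had 3 or more. In MitoNegative spleen cells, 541 of 1373 cells with a Trdc UMI had 3 or more.

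In culture, where the arms could be tested, gamma and delta genes both stood higher in MitoPositive cells. Of the 5 genes, 4 passed the filter on low counts and all 4 were called higher at an adjusted p under 0.05, where 9.26% of the 11436 genes tested were called in either direction. The quasi-likelihood test of edgeR, with Benjamini-Hochberg adjustment over all genes tested, was used for every adjusted p given here. Tcrg-C1 had 21 and 32 UMIs in the MitoNegative and MitoPositive samples together and was not tested.

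Trdc had 43.9, 36.4 and 35.4 CPM in MitoNegative culture cells of donors 1, 2 and 3 and 82.7, 59.3 and 47.8 CPM in MitoPositive culture cells. The 2 arms did not overlap, and the log2 fold change was 0.74 ± 0.16 (SE, n = 3 per group, edgeR adjusted p = 0.00972). Trgv2 rose from 3.07, 4.46 and 4.04 CPM to 5.66, 9.36 and 8.84 CPM, a log2 fold change of 1.10 ± 0.25 (edgeR adjusted p = 0.0138). Tcrg-C4 rose from 8.14, 7.38 and 6.79 CPM to 12.2, 9.93 and 14.2 CPM, by 0.75 ± 0.18 on the log2 scale (edgeR adjusted p = 0.0202). Tcrg-C2 rose from 3.44, 5.32 and 4.04 CPM to 6.23, 6.66 and 10.1 CPM, by 0.91 ± 0.26 (edgeR adjusted p = 0.0433). Each of these 4 genes was higher in MitoPositive cells of 3 of 3 donors, with no overlap between arms. How many of all genes separate the arms in this way was not counted, so the lack of overlap says little by itself.

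These calls depend on which map of the hashtags is right and on single donors. The labels give conflicting maps of hashtags to arms in culture. The deposited readme and hashtag list gave 1 map, which was used. Under the other map, 0 of the 4 genes and 0 of all genes were called, with 1 of the 4 at an unadjusted p under 0.05. Without donor 2, 0 of the 4 genes were called (all 4 at an unadjusted p under 0.05), and 22 of all genes. Without donor 3, Trdc alone of the 4 was called. After thinning to 2000 UMIs per cell, 2 of the 5 genes passed the filter, Trdc was called (log2 fold change 0.70) and Tcrg-C4 was not (0.20, edgeR adjusted p = 0.868). MitoPositive culture cells were deeper, with medians of 6928 to 8599 UMIs against 5875 to 7392. The share of cells with a gamma constant UMI was 8.76% ± 0.989 in MitoPositive and 5.06% ± 0.479 in MitoNegative culture samples (SD, n = 3). In thinned cells it was 2.57% ± 0.642 and 2.38% ± 0.866, which overlapped. For Trdc the thinned shares were 7.32% ± 1.64 and 5.34% ± 0.969, which overlapped as well.

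Within the 5 culture clusters that held at least 20 cells of every sample, the mean Trdc level was higher in MitoPositive cells in 5, and the arms did not overlap in 3. In the cluster led by S100a6 and Plac8, Trdc averaged 73.0 CPM in the MitoPositive arm and 28.2 CPM in the other. The summed gamma constant genes were higher in MitoPositive cells in 3 of the 5 clusters and overlapped in all 5. In the cluster led by Samd3, Klra7 and Klre1 they averaged 39.8 CPM in the MitoPositive arm and 17.7 CPM in the other.

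In the tumor, none of 4 genes was called between arms, where 0.512% of the 11906 genes tested were called. At an unadjusted p under 0.05, 2 of the 4 passed, and DESeq2 called none. Tcrg-C1, with 4 and 34 UMIs in the tumor arms, passed the filter on low counts only through the spleen samples in the fit, and it is not counted in this contrast or in those of tumor against culture. Tcrg-C2 had 2.01, 11.1 and 1.41 CPM in MitoNegative tumor cells of donors 1, 2 and 3 and 6.31, 12.4 and 13.8 CPM in MitoPositive tumor cells. It was higher in MitoPositive cells of each donor, but the groups overlapped, since MitoNegative cells of donor 2 exceeded MitoPositive cells of donor 1. The log2 fold change was 1.73 ± 0.59 (edgeR adjusted p = 0.230). Trgv2 had 4.03, 15.2 and 1.05 CPM against 7.88, 11.1 and 20.8 CPM (1.64 ± 0.85, edgeR adjusted p = 0.442), and without donor 3 its log2 fold change was -0.13. Tcrg-C4 had 0 (up to 6.04 allowed), 17.2 and 8.08 CPM against 13.4, 15.9 and 18.7 CPM, with a log2 fold change of 0.96 ± 0.51 (edgeR adjusted p = 0.464).

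Trdc pointed the other way in the tumor. It had 58.4, 78.0 and 12.3 CPM in MitoNegative tumor cells and 18.9, 26.1 and 13.5 CPM in MitoPositive tumor cells, a log2 fold change of -0.97 ± 0.31 (edgeR adjusted p = 0.196). Donors 1 and 2 were lower in MitoPositive cells and donor 3 was not. The MitoNegative values rest on 29, 77 and 35 UMIs, so counting error is large there: the exact Poisson 95% interval for donor 1 runs from 39.1 to 83.9 CPM. Melanoma markers (Pmel, Mlana, Dct, Tyrp1 and Tyr, none at 0 in the tumor groups) summed to 4.05 to 1419 CPM in the MitoNegative tumor samples and to 0.788 to 55.4 CPM in the MitoPositive ones. Macrophage markers (7 genes, none at 0) summed to 18.1 to 63.3 CPM and 12.7 to 14.98 CPM in these samples, with no overlap. The part of melanoma and macrophage RNA in these levels was not tested.

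MitoPositive tumor cells differed from MitoPositive culture cells in 2 of the 4 genes, in opposite directions. In this contrast 68.9% of the 12759 genes tested were called, and day and library cannot be told apart, so the count of members says little by itself. Trdc was lower in the tumor, at 19.5 ± 6.32 CPM against 63.3 ± 17.8 CPM in culture (SD, n = 3), a log2 fold change of -1.43 ± 0.30 (edgeR adjusted p = 0.000316). All 3 tumor samples lay below all 3 culture samples. Tcrg-C4 was higher in the tumor, at 16.01 ± 2.67 against 12.1 ± 2.13 CPM, by 0.68 ± 0.30 on the log2 scale (edgeR adjusted p = 0.047). That call was lost in Trbv14 cells (0.29, edgeR adjusted p = 0.358) and without donor 2 (0.48, edgeR adjusted p = 0.309). Tcrg-C2 (0.68 ± 0.36, edgeR adjusted p = 0.103) and Trgv2 (0.92 ± 0.46, edgeR adjusted p = 0.0846) did not pass; without donor 1, 4 genes were called.

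In MitoNegative cells, none of the 4 genes was called between tumor and culture, where 63.5% of the 12759 genes were called, and none passed at an unadjusted p under 0.05 or with DESeq2. Trdc had a log2 fold change of 0.27 ± 0.38 (edgeR adjusted p = 0.546), and without donor 3, whose tumor level was the lowest, it was 1.08 (edgeR adjusted p = 0.021). For the difference of the arm effect between tumor and culture, none of the 4 genes was called, where 0.611% of the 12759 genes were called. Trdc came nearest, at -1.71 ± 0.48 (edgeR adjusted p = 0.117; unadjusted p = 0.00233, the only 1 of the 4 under 0.05). DESeq2 gave it an adjusted p of 0.0269, and without the filter on low counts edgeR called it as well.

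**Figure D2:**
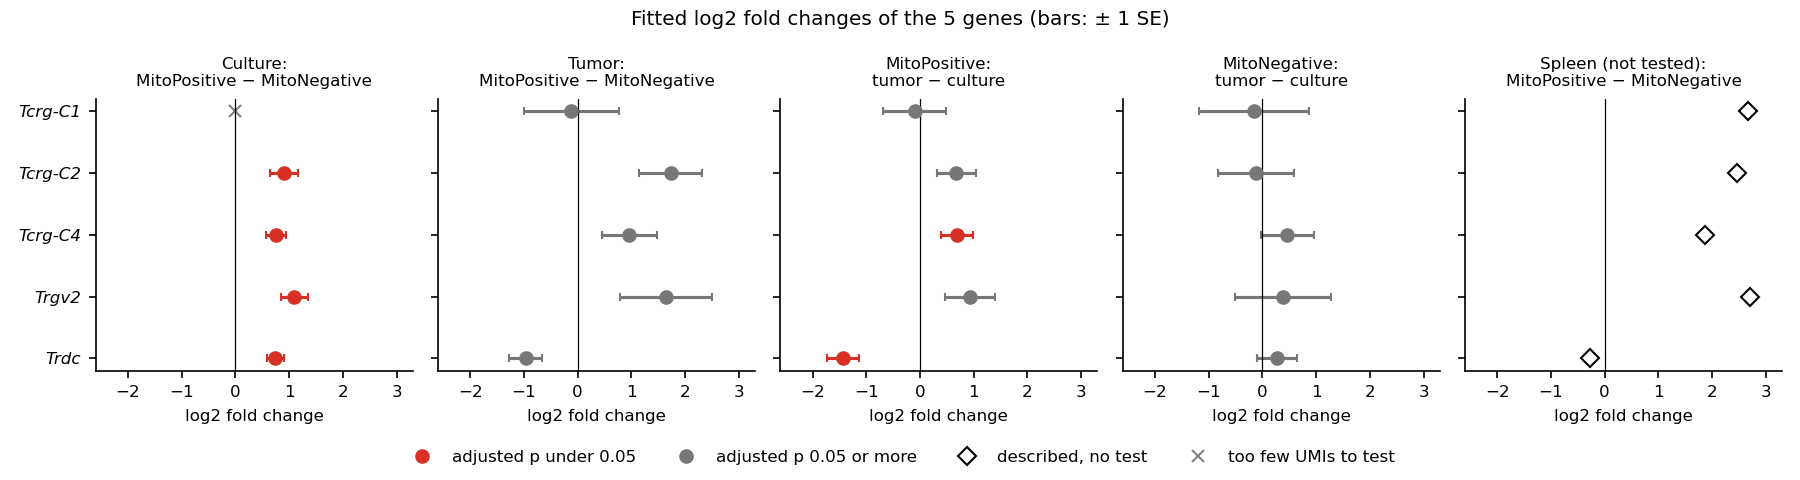
Fitted log2 fold changes (horizontal axis) of the 5 genes in 4 tested contrasts, with bars of 1 SE, and in the spleen, where no test was made; Tcrg-C1 is drawn outside culture but not counted, for its few UMIs. With the hashtag map used, the 4 genes tested in culture lie to the right of 0 and pass the test, and Trdc lies to the left of 0 in the tumor (-0.97) and in the MitoPositive tumor against culture contrast (-1.43).

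Between tumor and spleen of the same recipients, all 5 genes had lower fitted levels in the tumor in both arms (a description, with no test). In MitoPositive cells the log2 fold changes were -3.57 for Tcrg-C1, -1.79 for Tcrg-C2, -1.39 for Tcrg-C4, -1.58 for Trgv2 and -1.90 for Trdc. In MitoNegative cells they ran from -1.20 for Trdc to -0.48 for Tcrg-C4, and without donor 3 those of the gamma genes were above 0 (0.13 for Tcrg-C1, 0.24 for Tcrg-C2, 0.38 for Tcrg-C4 and 1.00 for Trgv2). In thinned cells those of Tcrg-C1 (0.28) and Tcrg-C2 (0.13) were above 0 as well, as were Tcrg-C1 in Trbv14 cells (0.09) and Trgv2 with DESeq2 (0.07). Trgv2 was higher in the MitoNegative tumor than in the spleen in 2 of 3 donors. Across the 6 groups, the summed gamma constant genes ranked from MitoNegative culture (12.9 ± 1.17 CPM) through MitoNegative tumor (14.4 ± 15.2), MitoPositive culture (20.9 ± 4.87), MitoNegative spleen (24.2 ± 12.3) and MitoPositive tumor (27.8 ± 6.46) to MitoPositive spleen (95.3 ± 14.7; SD, n = 3 each). Only the step to MitoPositive spleen was wider than the spread within the neighbouring groups. Trdc ranked from MitoPositive tumor (19.5 ± 6.32 CPM) through MitoNegative culture (38.6 ± 4.66), MitoNegative tumor (49.6 ± 33.7), MitoPositive culture (63.3 ± 17.8) and MitoPositive spleen (83.5 ± 31.3) to MitoNegative spleen (103 ± 53.7). Only its lowest step, from MitoPositive tumor to MitoNegative culture, was wider than that spread.

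The ratio of Trdc to gamma constant UMIs describes the same contrast within single libraries. It was 8.21, 6.09 and 1.64 in MitoNegative spleen cells of donors 1, 2 and 3 and 1.28, 1.06 and 0.429 in MitoPositive spleen cells, lower in MitoPositive cells of each donor. In culture it was 3.57, 2.55 and 2.92 in MitoNegative and 4.39, 3.42 and 1.81 in MitoPositive cells, which overlapped. In MitoPositive tumor cells it was 0.923, 0.870 and 0.411. In MitoNegative tumor cells it was 29.0 (from 1 gamma UMI), 2.48 and 1.25, so it was lower in MitoPositive cells of each donor there too.

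**Figure D3:**
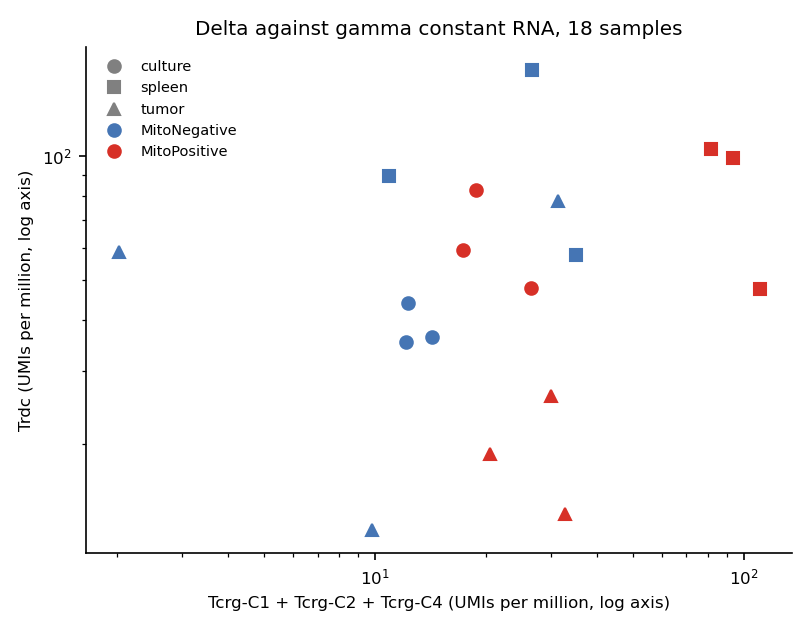
Trdc (vertical axis, CPM, log scale) against the sum of the 3 gamma constant genes (horizontal axis, CPM, log scale) in the 18 samples, with symbols for the site and colors for the arm. The 3 MitoPositive spleen samples lie farthest right, between 81.5 and 111 CPM of gamma RNA, and MitoPositive tumor samples lie low, between 13.5 and 26.1 CPM of Trdc.

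The cells that held gamma or delta RNA also held alpha beta receptor RNA. In the 14 samples with at least 20 such cells, a Trbc1 or Trbc2 UMI (beta constant genes) was found in 98.3% to 100% of cells with a gamma constant UMI, and a Cd8a or Cd8b1 UMI in 94.4% to 100%. A Trac UMI (alpha constant gene) was found in 77.6% to 98.1% of them. For cells with a Trdc UMI, 13 samples could be read, with 97.9% to 100% for Trbc and 94.6% to 100% for Cd8. In cells with no gamma constant UMI, the shares over all 18 samples were 96.0% to 100% for Trbc and 87.3% to 100% for Cd8. These shares were not thinned, and cells with a gamma UMI were deeper in each of the 6 groups, with 8823 against 6669 median UMIs in MitoNegative culture cells.

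Several genes that mark gamma delta T cells were at or near 0 in the spleen. Il17a and Sox13 had no UMI in MitoNegative spleen cells and 1 UMI each in MitoPositive ones, and Il23r had 1 UMI and none. Cd163l1 had 65 UMIs in MitoNegative and 44 in MitoPositive spleen cells, 5830411N06Rik had 31 and 12, Trdv4 had 60 and 17, and Blk had 7 and 1. Blk is also a B cell gene, and Trdv4 is itself a delta gene. Natural killer markers (Ncr1, Klrb1c, Klra4, Klra8 and Klri2) summed to 5.51 to 41.5 CPM in MitoNegative and 8.70 to 23.5 CPM in MitoPositive spleen samples, which overlapped. Macrophage markers summed to 60.3 to 143 and 67.4 to 130 CPM in the same samples, and also overlapped. Melanoma markers summed to 0.634 to 30.7 and 2.67 to 133 CPM there. The part of these cells in the gamma levels was not tested.

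Trbv14 encodes a beta variable segment, and its RNA was found in 24.9% to 80.0% of the cells of a sample. Within cells that had a Trbv14 UMI, the summed gamma constant genes averaged 74.3 ± 20.7 CPM in MitoPositive and 23.8 ± 12.5 CPM in MitoNegative spleen cells (SD, n = 3; as few as 19 cells in a sample). Tcrg-C1 averaged 15.5 ± 4.78 and 1.51 ± 0.697 CPM there, and Trgv2 18.8 ± 4.14 and 8.13 ± 6.08 CPM. In MitoPositive cells of donor 3, Tcrg-C1 and Trgv2 rest on 2 UMIs each and the gamma constant sum on 7 UMIs. A gamma constant UMI was found in 10.5% of those cells, below the 14.5% of MitoNegative Trbv14 cells of donor 3. Trdc averaged 127 ± 17.5 and 112 ± 54.1 CPM. Tcrg-C4 overlapped between the arms in these cells, with 61.5, 42.9 and 14.4 CPM in MitoPositive spleen cells of donors 1, 2 and 3 against 8.19, 9.44 and 27.1 CPM, so that donor 3 had the reverse order.

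Cells with a UMI of some other beta variable gene and none of Trbv14 were also summed. In MitoPositive spleen cells of that kind, Tcrg-C2 averaged 97.0 ± 94.1 CPM and Trgv2 99.7 ± 91.4 CPM, against 19.1 ± 3.66 and 18.8 ± 4.14 CPM in Trbv14 cells. The SD shows how unequal the 3 donors were, with Trgv2 from 32.4 to 204 CPM and as few as 9 cells in a sample. In MitoNegative culture cells the order of Tcrg-C2 was not the same, at 3.45 ± 3.01 CPM against 4.36 ± 1.502 CPM in Trbv14 cells. Trdc went the other way in MitoPositive spleen cells, with 22.1, 11.1 and 0 CPM (donors 1, 2 and 3) against 129, 143 and 108 CPM in Trbv14 cells. Tcrg-C1 was lower there as well, with 5.89, 8.04 and 0 against 11.4, 20.8 and 14.4 CPM. In MitoNegative spleen cells Trdc was lower in donors 2 and 3 but not in donor 1 (109 against 87.9 CPM). For the tested contrasts, Trbv14 cells alone gave 3 of 4 genes called in culture. Tcrg-C2 was the exception there (0.88, edgeR adjusted p = 0.0986).

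How gamma and delta RNA were divided over cells was not the same in culture and spleen. In 7 of 14 samples the share of cells with a Trdc UMI was higher among cells with a gamma constant UMI than among the rest, and in the other 7 it was not. Every spleen sample of the 14 was among the latter. The widest gap was 18.9% against 25.2% (MitoNegative, donor 2) and the narrowest 12.2% against 12.4% (MitoPositive, donor 2). The culture samples were among the 7 with a higher share, except MitoNegative cells of donor 3 (4.0% against 8.15%). Tumor samples were divided, and these shares were not thinned. After thinning to 2000 UMIs, 7.42% of 458 gamma-positive MitoPositive spleen cells had a Trdc UMI against 9.99% of 2793 gamma-negative ones. For MitoPositive tumor cells, the figures were 1.60% of 125 and 3.07% of 1663. In MitoPositive culture cells they were 12.5% of 64 and 7.08% of 2387, with only 8 cells behind the first. In MitoNegative cells they were 9.93% of 141 and 14.2% of 4724 in the spleen. In culture the MitoNegative figures were 7.69% of 52, from 4 cells, and 5.29% of 2118.

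Trgv2 and Tcrg-C2 lie in 1 cassette. In each of the 9 samples with at least 20 cells that held a Trgv2 UMI, Tcrg-C2 was found in more of those cells (36.0% to 57.8%) than of the other cells (1.79% to 8.42%). Tcrg-C4, which belongs to another cassette, was found in 20% to 48.0% of the Trgv2 cells and 3.15% to 18.8% of the others, so its shares among Trgv2 cells overlapped those of Tcrg-C2. In thinned MitoPositive spleen cells, 31.2% of 189 Trgv2 cells had a Tcrg-C2 UMI, against 4.57% of 3062 without Trgv2. For Tcrg-C4 the shares were 12.7% and 6.66%. In thinned MitoNegative spleen cells the order of the constant genes was the other way, since of 39 Trgv2 cells 17.9% had a Tcrg-C2 UMI and 28.2% a Tcrg-C4 UMI. Across the 18 samples, Trgv2 and Tcrg-C2 levels on the log2(CPM + 1) scale had a Pearson r of 0.964, whereas Trgv2 and Trdc had 0.235. These are descriptions, and the samples share libraries and donors.

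Clusters made without any T cell receptor gene differed in which gamma or delta gene they held at d7. The values are means ± SD over samples with at least 20 cells of the cluster, and they describe the clusters without a test. Tcrg-C1 was highest in the cluster led by Art2b, Pde2a, Bcl2 and Lef1, the last a transcription factor of less differentiated T cells, at 17.6 ± 8.23 CPM (n = 5). Tcrg-C2, Trgv2 and Tcrg-C4 were highest in the cluster led by Gzma, Cx3cr1, S1pr5 and Zeb2, genes of cytotoxic effector cells, at 66.8 ± 58.6, 63.5 ± 51.4 and 63.9 ± 18.03 CPM (n = 4). Trdc was highest in the cluster led by Gpr55, Fut7, Cd7 and Id3, at 191 ± 109 CPM (n = 5), and was itself among the leading genes there. It was lowest, at 10.04 ± 13.7 CPM (n = 3), in the tumor cluster led by Rgs1 and Pmepa1. That tumor cluster had 39.8 ± 32.5 CPM of Tcrg-C2 and 49.6 ± 36.2 CPM of Trgv2. The spleen arms filled the other 3 clusters unequally. The Art2b cluster held 1338 MitoPositive and 283 MitoNegative spleen cells, and the Gzma cluster 840 and 139. The Gpr55 cluster held 665 MitoPositive and 2560 MitoNegative spleen cells. The part of this make-up in the arm differences over all spleen cells was not tested.

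**Figure D4:**
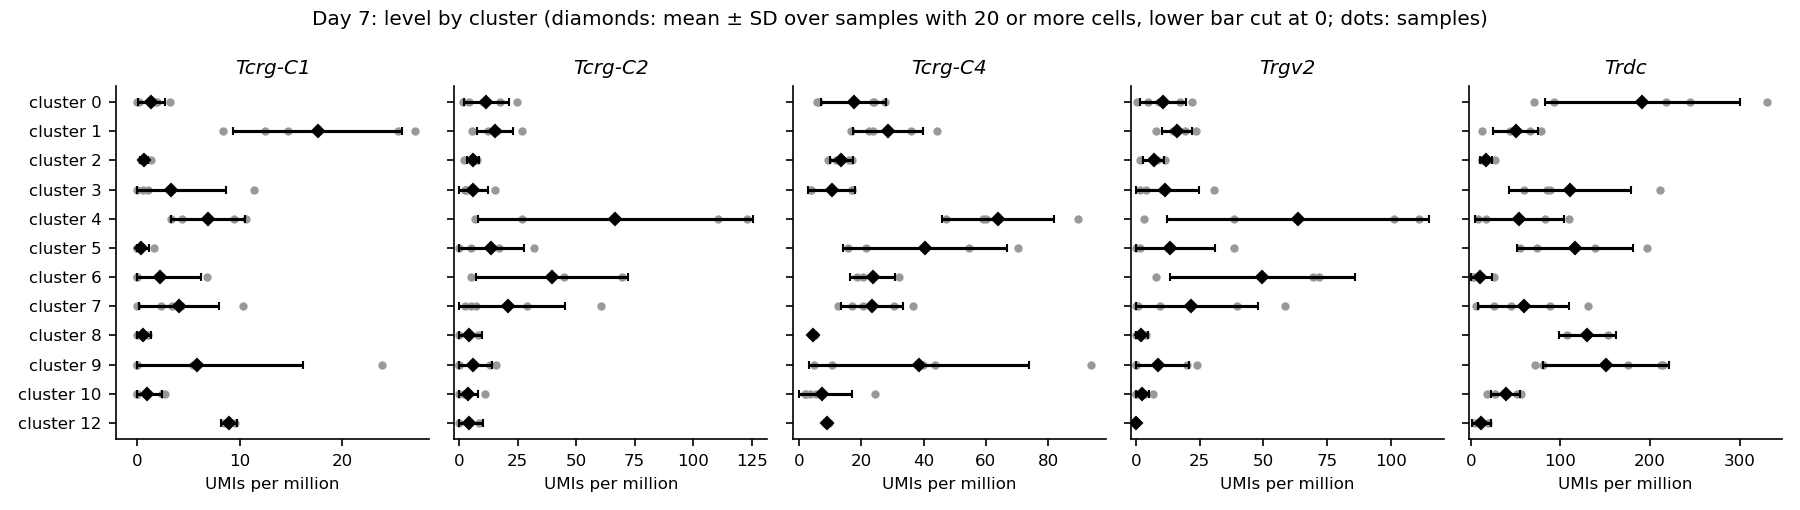
Level (CPM, horizontal axis, a separate scale for each gene) of the 5 genes in the d7 clusters with at least 2 samples of 20 or more cells; diamonds are means with bars of 1 SD and dots are samples. Tcrg-C1 peaks in cluster 1 (Art2b, Pde2a, Lef1) at 17.6 CPM, Tcrg-C2 and Trgv2 in cluster 4 (Gzma, Cx3cr1, S1pr5) and Trdc in cluster 0 (Gpr55, Fut7, Cd7) at 191 CPM.

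Arms could be set side by side within 8 spleen clusters, of which the MitoPositive arm had 1 or 2 samples in each. The summed gamma constant genes were higher on average in MitoPositive cells in 7 of the 8, and the samples did not overlap in 4. In the cluster led by Art2b and Pde2a they had 87.5 and 88.1 CPM in MitoPositive cells of donors 1 and 2 and 41.6 to 47.4 CPM in the 3 MitoNegative samples. In the cluster led by Gzma and Cx3cr1 the arms overlapped, at 121 and 181 CPM against 70.0 and 179 CPM. Trdc was higher on average in MitoPositive cells in 5 of the 8. In the Gzma and Cx3cr1 cluster it had 16.5 and 7.86 CPM in the MitoPositive arm against 110 and 82.5 CPM. In the cluster led by Gpr55 and Cd7 Trdc had 331 and 245 CPM in MitoPositive cells and 70.6 to 218 CPM in MitoNegative ones. In the 2 tumor clusters that held both arms, Trdc averaged higher in MitoPositive cells in both (18.1 against 12.5 CPM and 41.3 against 35.3 CPM). The first of these rests on 1 MitoNegative sample, close to the lowest MitoPositive one (12.7 CPM), and the second on 2 MitoNegative samples. The arms thus held unlike sets of donors, so this order cannot be set against that over all tumor cells.

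Leaving out 629 cells of 3 d7 clusters led by macrophage, melanoma or Cd4 genes, an alternative chosen after seeing the data, gave fitted spleen log2 fold changes of 2.91 for Tcrg-C1, 2.58 for Tcrg-C2, 1.98 for Tcrg-C4, 2.84 for Trgv2 and -0.26 for Trdc. In cells with no Trdc or Trdv UMI they were 2.44, 2.38, 1.77 and 2.76 for the 4 gamma genes. The spleen difference in gamma RNA was thus also present in cells without detected delta RNA.

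The other 21 genes of the gamma and delta loci ranged from 0 to 1050 UMIs, and Trdv2-2 (1050) and Trdj1 (941) had more than Tcrg-C1 (439). Trgj3, Trdd1 and Trdd2 had no UMI, 10 had 1 to 49 and 8 had 50 or more. Tcrg-C3, the constant gene of the remaining cassette, had 12 UMIs in all. Tcrg-V1, the variable gene that joins with Tcrg-C4, had 3.89 ± 2.23 CPM in MitoPositive and 0.945 ± 0.284 CPM in MitoNegative spleen cells (SD, n = 3). Trdv2-2, a delta variable gene, had the opposite order, 9.95 ± 5.09 and 16.7 ± 13.3 CPM, as did Trdv1 with 1.37 ± 1.25 and 4.36 ± 3.68 CPM. Trdv3 (8 and 46 UMIs) and Trdv4 (17 and 60 UMIs) also had lower means in MitoPositive spleen cells. Trdv5, a delta variable gene as well, had the higher mean there, at 0.880 ± 1.29 against 0.219 ± 0.240 CPM (32 and 4 UMIs), as did Trgj4, the joining segment of the Tcrg-C4 cassette (0.563 ± 0.507 against 0.201 ± 0.257 CPM).

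Trdj1, a delta joining segment, fell in the tumor. It had 0.954 ± 0.885 CPM in MitoPositive tumor cells against 8.17 ± 2.64 CPM in MitoPositive culture cells (SD, n = 3), a log2 fold change of -3.35 ± 0.47 (edgeR adjusted p = 4.5e-06). In MitoNegative cells the log2 fold change was -1.63 ± 0.68 (edgeR adjusted p = 0.0419), from 7 UMIs in the tumor. Between culture arms Trdj1 did not pass (0.22 ± 0.24, edgeR adjusted p = 0.651).

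Genes of the alpha beta receptor complex were mostly not called between the arms. Of 9 such genes tested, 0 rose and 1 fell in culture, with a median log2 fold change of -0.02 against -0.00 over all genes and 9.26% of all genes called. The one that fell was Cd8b1, the CD8 beta chain, by 0.27 ± 0.08 on the log2 scale (edgeR adjusted p = 0.0411). In the tumor none of the 9 was called between arms (median 0.16 against 0.06 over all genes), and in the spleen the median was -0.03 against 0.00. In MitoPositive tumor against culture, 4 of the 9 fell and 0 rose, a smaller share than the 68.9% called over all genes, and in MitoNegative cells 6 fell and 0 rose beside 63.5%. In the MitoPositive contrast, Cd247, the zeta signalling chain, was at -1.33 ± 0.10 (edgeR adjusted p = 1.8e-09) and Cd8b1 at -1.22 ± 0.13 (edgeR adjusted p = 8.8e-08).

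Known regulators of the gamma locus gave 1 rise and 2 falls among 13 tested genes in culture (median log2 fold change -0.04), where 9.26% of all genes were called. Il7r, the IL-7 receptor, rose by 0.31 ± 0.09 (edgeR adjusted p = 0.0483). Myb, a transcription factor of progenitor cells, fell by 1.23 ± 0.15 on the log2 scale (edgeR adjusted p = 0.000513), and Ets1 fell by 0.38 ± 0.09 (edgeR adjusted p = 0.0139). None of the 13 was called between tumor arms (median 0.09). In tumor against culture, 2 rose and 7 fell in MitoPositive cells, beside 68.9% of all genes called, and 2 rose and 10 fell in MitoNegative cells, beside 63.5%. The first share is close to that over all genes. In MitoPositive cells Il7r was at -2.28 ± 0.20 (edgeR adjusted p = 1.3e-08), Bcl11b, a T lineage factor, at -2.79 ± 0.19 (edgeR adjusted p = 6.0e-10), and Stat5a, which carries the IL-7 signal, at 1.66 ± 0.14 (edgeR adjusted p = 7.4e-09). In the spleen, the fitted log2 fold change of Il7r between arms was 0.34 and that of the 13 genes had a median of 0.05 (no test).

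Of 16 genes of the gamma delta lineage, 5 had enough UMIs to be tested in culture and 1 was called, where 9.26% of all genes were. Cd163l1, a receptor of IL-17-producing gamma delta cells, was lower in MitoPositive cells by 2.69 ± 0.51 on the log2 scale (edgeR adjusted p = 0.00504), the other direction from the gamma genes. Over the 5, the median log2 fold change was 1.00. In the tumor none of 7 was called between arms, and in the spleen the 7 had a median of 0.01. In tumor against culture, 5 of the 7 rose and 2 fell in MitoNegative cells (median 2.56, beside 63.5% of all genes called), and 2 rose and 1 fell in MitoPositive cells (median -0.25, beside 68.9%). Of the 16 genes, Sox13, Il17a, Il17f, Cd163l1, 5830411N06Rik, Blk, Zbtb16 and Il1r1 had no UMI in MitoNegative tumor cells. Others were low and uneven there, with Tmem176b from 2.01 to 25.3 CPM and 21 UMIs each for Ccr6 and Etv5. The part of melanoma and macrophage RNA in these rises was not tested.

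Effector genes also stood higher in MitoPositive spleen cells. Gzma, a granzyme, averaged 1721 ± 893 CPM in MitoPositive and 320.0 ± 91.4 CPM in MitoNegative spleen cells, and Zeb2, a factor of terminal effector cells, 237 ± 160 and 56.8 ± 19.5 CPM (SD, n = 3). Over the 8 effector genes the fitted median was 1.81 (no test). In culture, 3 of 6 tested rose and 1 fell, where 9.26% of all genes were called. Gzma rose by 1.63 ± 0.32 (edgeR adjusted p = 0.00607), Zeb2 by 1.17 ± 0.29 (edgeR adjusted p = 0.0236) and Tbx21, the T-bet gene, by 0.43 ± 0.10 (edgeR adjusted p = 0.016). Klre1, a killer cell lectin-like receptor, was lower by 0.98 ± 0.21 on the log2 scale (edgeR adjusted p = 0.0102). In the tumor Klre1 was higher in MitoPositive cells, by 1.69 ± 0.25 (edgeR adjusted p = 0.0262), the only 1 of the 8 called. In tumor against culture, 5 of the 8 rose and 0 fell in each arm. Over all genes, 68.9% were called in MitoPositive and 63.5% in MitoNegative cells, so the share called among effector genes was not above that.

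The genes most like the mean of Tcrg-C1 and Tcrg-C2 over the 18 samples were ranked among 6185 genes with a mean of at least 20 CPM. The highest Pearson r were those of Ptp4a3 (0.854), a phosphatase, Setd4 (0.827), Chsy1 (0.821), Ccl5 (0.812), a chemokine of effector T cells, and Itgb2 (0.780), an integrin chain. Entpd1 (0.771), Pigt (0.763), Nsa2 (0.760), Bcl2 (0.754) and Rps27 (0.753) completed the 10 highest. The lowest were Cops5 (-0.861), Psmd4 (-0.860), a proteasome subunit, Hadha (-0.824), Cers6 (-0.811) and Supt3 (-0.804). Over the 12 d7 samples, Gimap7 (0.929), Bcl2 (0.921) and H2-Q4 (0.914) were highest. Psmd4 was again among the lowest (-0.913). The reference gene pair itself correlated with Trdc at 0.395 over the 18 samples.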

How the data were processed

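The deposited matrices hold UMI counts per gene and barcode, from Cell Ranger 7.0.0 per the file headers. Seurat 4.0.5 and the build mm10 (GRCm38) are named in the submitters' processing notes, and the labels' protocols name a 3′ droplet kit. The authors did not divide the deposited counts by hashtag.

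From 18092 barcodes, the 17458 with at least 500 genes and under 15% mitochondrial UMIs were kept. A barcode was given its top hashtag where this reached 10 UMIs and 3 times the next. Clusters were made per day without receptor genes (scanpy 1.11.5, leidenalg 0.10.2, 2000 variable genes, 30 components, 15 neighbours, resolution 0.5). Clusters in which under 50% of cells had a Cd3 UMI (91 cells) were left out. No doublet caller was run; the hashtag ratio removed droplets with mixed hashtags. UMIs were summed per sample and tested with edgeR 4.0.16 in R 4.3.3 (filterByExpr, TMM, threshold 0.05 after Benjamini-Hochberg adjustment over all genes). The culture fit had no donor term. The d7 fit of 12 samples and the fit of all 18 had donor as a block, since samples with a number come from 1 donor. Deviations from group means correlated at 0.07 to 0.34 within donors in culture and at -0.10 to 0.27 at d7. Between donors they correlated at -0.31 to 0.05 in culture and at -0.21 to 0.17 at d7. The culture ranges did not overlap, although the culture fit had no donor term, and a fit with that term is among the alternatives. Standard errors came from the F statistic. The scripts were tested on simulated counts.

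The 5 members, the gene lists and the marker lists were chosen with earlier results of these data known. Besides the members, the text names list genes that pass the test or are at 0, other gamma and delta genes with at least 50 UMIs, and the 10 most and 5 least similar genes by Pearson r; further lead genes of clusters and examples were named after their values were seen. The donors are separate mice, and each group has 1 sample per donor. Alternatives were another hashtag caller, another hashtag map, DESeq2 1.42.0 and its size factors, no low-count filter, thinned cells, subsets of cells, the donor block and leaving out each donor. Sequences and positions came from GENCODE vM21 on GRCm38; no protein sequences were used. The summed level of the gamma delta T cell markers is not reported here.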

Additional observations from a re-analysis of the deposited data

Results flagged for a closer look

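For 4 genes of the lists, the difference between MitoPositive and MitoNegative cells itself differed between tumor and culture (edgeR interaction, adjusted p under 0.05). The difference on the log2 scale, tumor minus culture, was 2.68 ± 0.34 for Klre1 (edgeR adjusted p = 0.00115), 1.89 ± 0.26 for Myb (edgeR adjusted p = 0.00191), -1.82 ± 0.36 for Maf, a transcription factor (edgeR adjusted p = 0.0293), and -3.73 ± 0.68 for Tmem176b (edgeR adjusted p = 0.0192). None of the gamma and delta genes Tcrg-C2, Tcrg-C4, Trgv2 and Trdc passed this test.

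Barcodes without a hashtag call, which no comparison used, also held gamma RNA. The 3 gamma constant genes summed to 47.3, 57.0 and 38.1 CPM in such barcodes of the d7 libraries of donors 1, 2 and 3 and to 16.9 CPM in those of the culture library. They made up 5.35%, 3.14% and 2.52% of barcodes at d7 and 9.63% in culture. Groups of 3 samples were not checked for outlying samples.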

How the results depend on the processing

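Of the 4 genes called in culture, 1 was called with thinned cells, 0 with the other hashtag map, and 0 to 4 when a donor was left out. With that map Tcrg-C2 had a log2 fold change of -0.30. None was called between tumor arms, but 4 were without the filter on low counts (the cause was not tested); the log2 fold change of Trgv2 between tumor arms ran from -0.13 without donor 3 to 3.74 without donor 2. For MitoPositive tumor against culture, with 2 called, 1 was called in Trbv14 cells, with no cluster left out, with DESeq2 size factors and with DESeq2, 4 with thinned cells, and 1 to 4 when a donor was left out. For MitoNegative tumor against culture, with 0 called, 0 to 1 were called without a donor; Trdc ranged from -0.49 to 1.08. With the replicate block in culture, 4 genes were called, and without it in the other contrasts 0, 2 and 0; over all genes the block raised the calls in culture from 1059 to 2295. The fitted spleen log2 fold change of each of the 4 gamma genes kept its sign in all 14 alternatives, and that of Trdc in 11 of 13. The genes were chosen knowing the spleen difference of Tcrg-C1 and Tcrg-C2, and the alternatives refit the same samples. These sign counts are therefore a description and no support for that difference. Trdc stayed lower in MitoPositive tumor than in culture in all 14. Other limits are few cells in the MitoNegative tumor samples and in 1 spleen sample.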
